A study of Mus musculus with 8 samples.

Results

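Chromatin accessibility was examined around 9 genes of MHC class II antigen presentation and costimulation in mouse alveolar macrophages (AMs) that lacked retinoid X receptors α and β (RXRs). The genes were the class II transactivator Ciita, the invariant chain Cd74, the class II chain genes H2-Ab1, H2-Aa and H2-Eb1, the peptide exchange genes H2-DMa and H2-DMb1, and the costimulatory ligands Cd80 and Cd86. ATAC-seq, which reads accessible chromatin through transposase cuts, gave peaks in each library. Peaks that overlapped a gene body or the 20 kb on either side of it were taken from all 8 libraries and merged where they shared a base, with the genes as annotated by GENCODE M21 on mm10. This gave 84 regions out of 82424 in the genome, and 76 of them had a peak in at least 2 libraries. Of the 53 regions with a peak in every library, 0 were lower and 0 higher in RXR-deficient cells in limma (adjusted p under 0.05), whereas over the genome 7.03% of such regions were lower and 5.81% higher. At an unadjusted p under 0.05 there were 10 (18.9%), against 26.2% over the genome. With single libraries left out, 0 to 1 of the 53 were lower and 0 to 3 higher at an adjusted p under 0.05. No region had a peak in every wild-type and no deficient library (0.82% of regions in at least 2 libraries over the genome) or the reverse (0.285%). The differences nearest to the threshold lay between H2-Aa and H2-Eb1, at and near the start of H2-DMb2, and downstream of and within Cd86.

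MHC class II molecules carry peptides from ingested material to the cell surface for CD4+ T cells. CIITA, which binds no DNA itself, is recruited to class II promoters by factors seated on an X box (the RFX complex and CREB1) and a Y box (NF-Y). The α and β chains assemble on the invariant chain, the DM heterodimer then exchanges the remnant of that chain for antigenic peptide, and CD80 or CD86 on the same cell engages CD28 or CTLA-4 on the T cell. Mouse AMs are known for low surface class II compared with dendritic cells.

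The libraries came from mature AMs (CD11b-, SiglecF+) sorted from bronchoalveolar lavage of 9-week-old adult mice on a C57BL/6J background. The KO group (4 libraries, replicates 1_2, 1_3, 2 and 3) was Cd11cCre+ Rxrab fl/fl, with floxed Rxra and Rxrb alleles and a Cre driven by the Cd11c promoter, which is also active in dendritic cells. The WT group (4 libraries, replicates 1_2, 1_3, 3 and 4) was Rxrab fl/fl without Cre, so that both groups carried the floxed alleles. The sex is not given per library, nor whether replicates 1_2 and 1_3 came from separate mice, so p-values measure the spread between these libraries. The lists held 60363 to 72484 peaks, with WT 1_3 the deepest by its genome-wide background of 2.26 tags per 200 bp and KO 3 the shallowest at 1.12. A region in an intron of Rxra had a peak in all 4 WT libraries and in no KO library. Promoter peaks of AM markers were found for 6 of 7 genes in all libraries, the exception being Chil3, which had none. Of 6 dendritic cell markers, Flt3 and Zbtb46 had a promoter peak in every library and Ccr7, Cd209a, Xcr1 and Clec9a had one in none, with summed tags of 115 to 151 in KO and 112 to 150 in WT. The B cell genes Cd79a and Ms4a1 had no promoter peak in any library, and Pax5 had one of 11 tags in WT 1_3 alone. No T cell marker had a peak. S100a8 and Cxcr2 of the 4 neutrophil markers, Epcam of the 4 epithelial markers, and Ly6c2 and Cx3cr1 of the 3 monocyte markers had promoter peaks in all libraries, with summed tags of 165 to 228 in KO and 197 to 295 in WT, of 11 to 20 and 16 to 32, and of 44 to 59 and 31 to 66, respectively. Ccr2 had one in KO 3 and WT 3 only. A sort of mature AMs leaves out CD11b+ and SiglecF- cells, and the part of other cells in the results was not tested. In pooled cells, a change in the share of a cell type and a change in accessibility per cell cannot be told apart.

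The measure at a region was the number of tags at its highest summit in a library. A tag is a transposase cut extended to 200 bp, and the number was worked back from each peak's fold enrichment and −log10 p. Differences are log2(tags + 0.5), KO minus WT, after each library was centred on its median over the 47499 regions that every library shared. They were tested with limma over all of those regions, with Benjamini-Hochberg adjustment. Scaled tags are tags divided by the same library median, on the scale of an average library.

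Of the 84 regions, 52 lay in introns, 7 in exons and 25 between genes, and 15 fell within the windows of more than 1 of the genes. A summit lay within 1 kb of an annotated start of one of the 9 genes in 13 regions, which are called promoter regions here. There were 53 regions with a peak in all 8 libraries, 23 with a peak in 2 to 7 libraries and 8 with a peak in 1 library. The share of regions in all 8 among those in at least 2 libraries was 69.7% around these genes and 65.3% over the genome. Each library had a peak in 66 to 74 of the regions, between 66 and 69 in the KO libraries and between 67 and 74 in the WT libraries, with the highest number in WT 1_3. The strength of the 53 shared regions was close to that of the genome. Their median strength percentile, taken among all summits of a library, was 60.5, against 61.8 for the shared regions of the whole genome, and single regions ranged from 6.3 to 98.4.

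**Figure D1:**
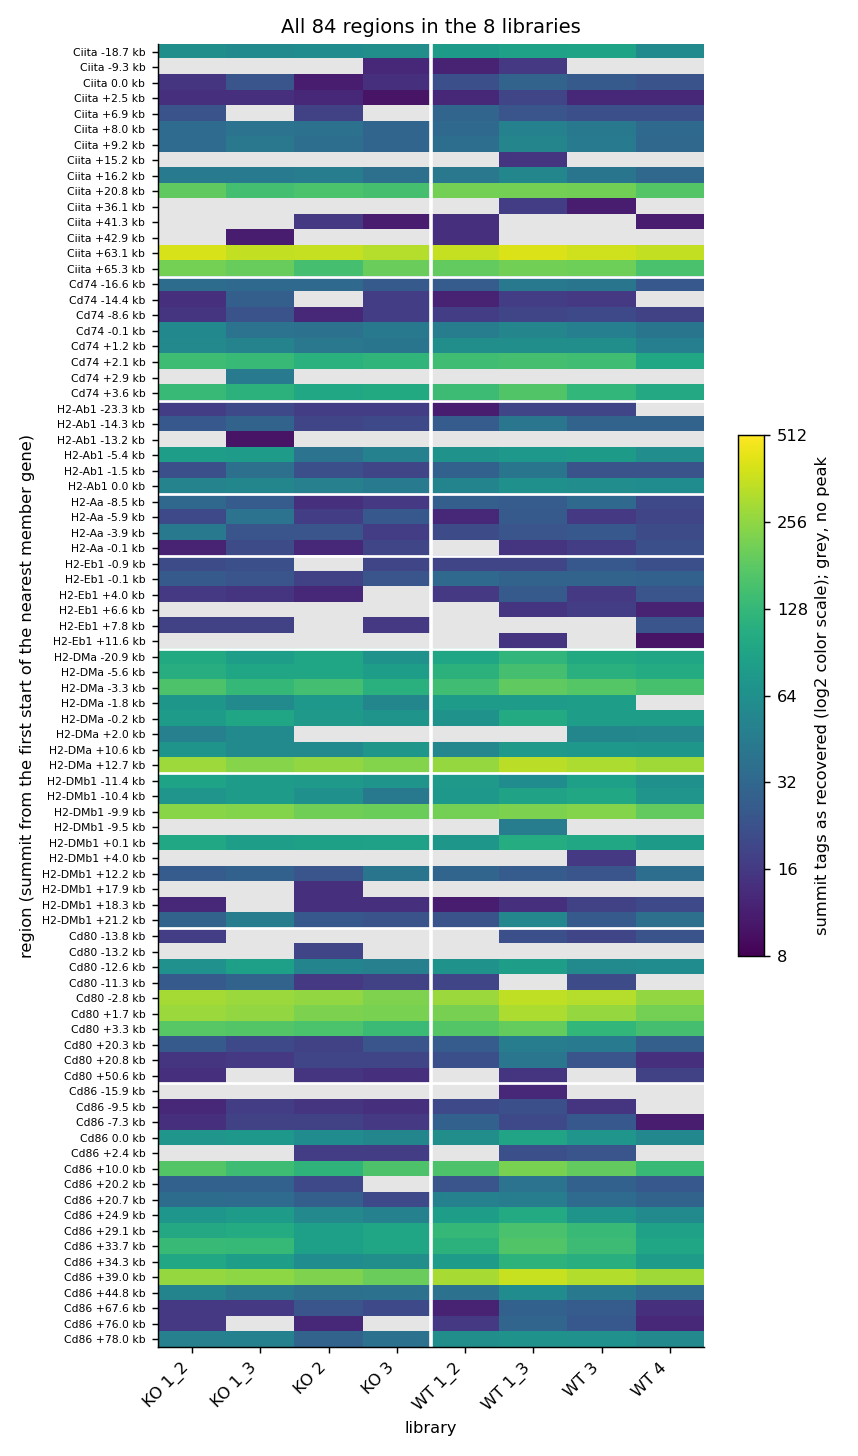
Summit tags at all 84 regions (rows, ordered by gene and by distance in kb of the strongest summit from the gene's first annotated start) in the 4 KO and 4 WT libraries (columns). Color gives tags on a log2 scale and grey marks a library without a peak. Grey cells are spread over both genotypes, and no row is grey in all 4 libraries of one genotype while filled in all 4 of the other.

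Promoter accessibility differed widely between the genes. Mean scaled tags (± SD over the libraries with a peak) were highest at the inner H2-DMa start (278 ± 25.3, n = 8), followed by Cd80 (160 ± 20.5, n = 8), H2-DMb1 (88.2 ± 10.8, n = 8), the outer H2-DMa start (82.0 ± 9.6, n = 8), Cd86 (67.0 ± 4.4, n = 8), H2-Ab1 (55.1 ± 6.0, n = 8) and Cd74 (45.7 ± 5.7, n = 8). The 2 downstream Ciita starts had 38.4 ± 3.1 and 37.7 ± 3.4 (n = 8 each). The weakest were H2-Eb1 (26.9 ± 4.4, n = 8) with a second region 5′ of it (21.1 ± 3.6, n = 7), the upstream Ciita start (20.4 ± 5.0, n = 8) and H2-Aa (17.6 ± 5.5, n = 7). Only 2 of the 12 steps in this order had ranges over the libraries that did not overlap, those from the inner H2-DMa start to Cd80 and from Cd80 to H2-DMb1, and the ranges of all other neighbours overlapped, although Cd86 lay below the outer H2-DMa start in 8 of 8 libraries. Summits in open surroundings count local background as well. The outer H2-DMa start stood on the highest local background, 15.3 to 24.8 tags, followed by Cd80 (11.0 to 17.4), Cd74 (9.4 to 15.1) and the inner H2-DMa start (8.2 to 12.3), while all other promoter regions had at most 4.9. The order is therefore one of summits and not of excess over background.

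**Figure D2:**
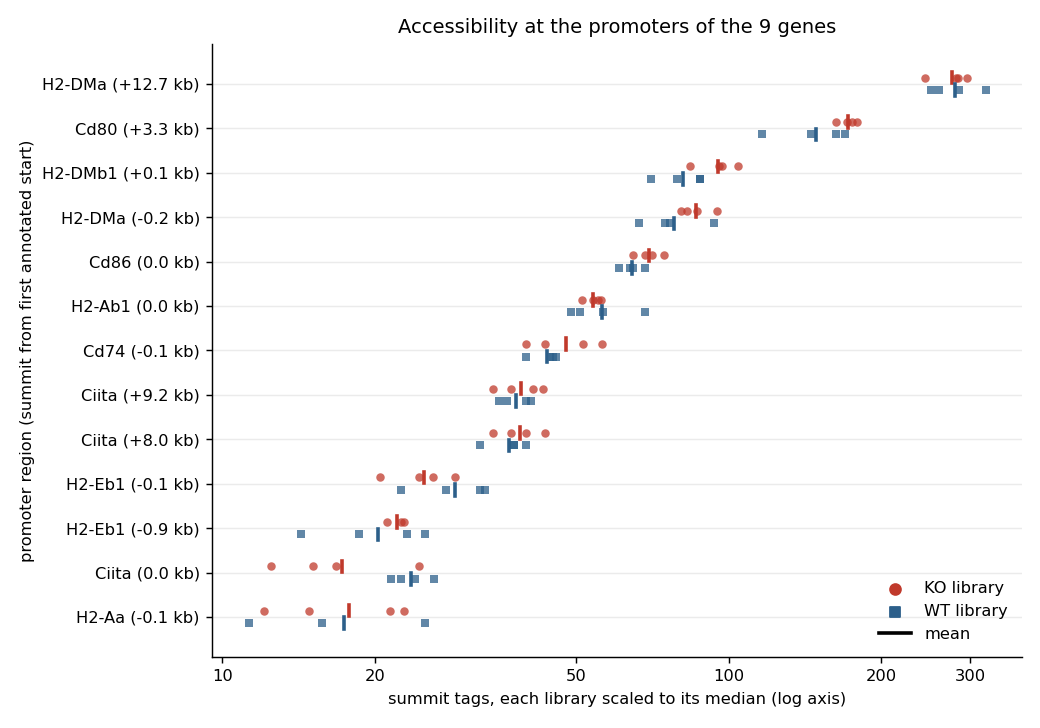
Scaled summit tags (log axis) at the 13 promoter regions, ordered by their mean, with one point per library and a bar for the mean of each genotype. The ranges of KO and WT overlap at each promoter, and 11 of the 13 regions were found in all 8 libraries.

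The first question was whether loss of RXRs changed accessibility at Ciita, whose product is required for class II transcription. Ciita is read from several alternative starts that are used by different cell types. Its window held 15 regions, 9 of them in all libraries, and 3 of the 9 differences were negative and 6 positive. None passed the test (lowest adjusted p = 0.132, limma).

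At the upstream Ciita start (chr16:10479733-10480219) the KO libraries 1_2, 1_3, 2 and 3 had 15, 24, 11 and 14 tags and the WT libraries 1_2, 1_3, 3 and 4 had 22, 30, 26 and 23. All but KO 1_3 of the KO libraries lay below every WT library in tags as recovered, and with scaling KO 1_3 overlapped WT. The difference was −0.48 ± 0.21 (SE, 95% interval −0.90 to −0.05, adjusted p = 0.132, limma). Without KO 1_3 it was −0.65 with an adjusted p of 0.0436, and over 18 alternatives the adjusted p ranged from 0.0436 to 0.437.

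The 2 downstream Ciita starts did not separate the genotypes. Tags at chr16:10487896-10488250 were 34, 39, 38 and 31 in KO and 33, 50, 43 and 33 in WT (difference 0.07 ± 0.17). Tags at chr16:10489093-10489456 were 34, 42, 36 and 31 in KO and 36, 53, 44 and 32 in WT (0.03 ± 0.17). The strongest region inside the gene was intronic, 20.8 kb from the first start (chr16:10500508-10501119), with 186, 148, 157 and 150 tags in KO and 216, 216, 211 and 169 in WT. Its difference of −0.13 ± 0.09 had an adjusted p of 0.416 (limma), with groups that overlapped after scaling. A second intronic region, at 16.2 kb (chr16:10496047-10496355), had 44, 45, 46 and 37 tags in KO and 42, 54, 40 and 32 in WT. After scaling all KO libraries lay above all WT libraries, which gives the smallest p that 70 labelings allow in an exact permutation test (0.0286, two-sided), yet the difference of 0.27 ± 0.16 had an adjusted p of 0.29 in limma.

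The highest tags in the Ciita window belonged to neighbouring genes. The start of Dexi (chr16:10542864-10543355) had 401, 350, 358 and 321 tags in KO and 357, 411, 382 and 348 in WT, a difference of 0.15 ± 0.08 with an adjusted p of 0.24. The start of Clec16a (chr16:10545090-10545579) had 215, 195, 150 and 199 tags in KO and 187, 211, 204 and 156 in WT. Its difference of 0.21 ± 0.09 had an adjusted p of 0.136 (limma), which was 0.041 without KO 2, in a range of 0.0129 to 0.802 over 19 alternatives. Without KO 3 the difference was 0.14.

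Sequence around the strongest Ciita intronic summit is shown because this element was the most accessible inside the gene. It held a core of the macrophage factor PU.1 (GAGGAA, in capitals). Other shared Ciita regions held this core too, and so did 38.3% of all shared regions over the genome. The sequence is the mm10 plus strand, chr16:10500832-10500952, from the RefSeq genome GRCm38.p6.
Ciita intron: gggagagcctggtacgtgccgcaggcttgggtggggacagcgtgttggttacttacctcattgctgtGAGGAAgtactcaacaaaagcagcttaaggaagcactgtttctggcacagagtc

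Class II chain genes were examined next. H2-Ab1 encodes the β chain of I-A, H2-Aa its α chain and H2-Eb1 the β chain of I-E. Their adjoining windows held 16 regions, of which 8 had a peak in all libraries, 7 in 2 to 7 libraries and 1 in a single library. Of the 8 differences 5 were negative and 3 positive, with a median of −0.03, and none passed (lowest adjusted p = 0.0518, limma). The 8 shared regions had between 13 and 81 tags and had strength percentiles from 18.6 to 61.2.

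X and Y box cores were looked for in promoter sequence, since class II promoters are known for this pair. The search was for GCAAC followed after 20 to 40 bases by ATTGG, on both strands, in the 300 bases from 250 before to 50 after each start in the RefSeq promoter table (GRCm38.p6). The exact pair was present in 332 of 32851 promoters (1.01%). Of the 9 genes, 5 were in the table (Cd80, H2-Aa, H2-Eb1, H2-DMa and H2-DMb1), and H2-Aa and H2-Eb1 held the pair. With 1 mismatch in the X core, which 11.8% of promoters then met, H2-DMb1 was added. The table does not hold the inner H2-DMa start. Within 200 bases of a summit, 2 of the 53 shared regions (3.77%) held the exact pair, against 1.07% of all shared regions, and these were the H2-Eb1 promoter region and a region 1.5 kb upstream of H2-Ab1 that read the pair on the opposite strand to the gene. The H2-Aa promoter region, with a peak in 7 libraries, held it too. When 1 mismatch was allowed around summits, a search added after the data had been seen, the pair was present at 10 of the 53 regions (18.9%) against 13.6% of all shared regions, and at 6 of the 13 promoter regions, among them those of the inner H2-DMa start and H2-DMb1. The H2-Ab1 promoter region met neither search. A core read with at most 1 mismatch can miss an X box that differs more. A region without a match is therefore not shown to lack the pair. The stretches printed are those with an exact pair and the mismatched ones of both DM genes, to show the pair and its spacing. Each is written 5′ to 3′ on the strand of the pair, with the 2 cores in capitals. The positions are chr17:34287847-34287924 (minus strand) for H2-Aa, chr17:34305756-34305832 (plus) for H2-Eb1, chr17:34153077-34153154 (plus) for H2-DMb1, chr17:34135494-34135571 (plus) for the inner H2-DMa start and chr17:34261665-34261742 (minus) for the region upstream of H2-Ab1.
H2-Aa promoter: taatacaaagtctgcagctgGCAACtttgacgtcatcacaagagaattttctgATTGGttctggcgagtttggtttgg
H2-Eb1 promoter: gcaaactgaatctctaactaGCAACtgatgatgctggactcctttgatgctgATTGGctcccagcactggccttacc
H2-DMb1 promoter, 1 mismatch: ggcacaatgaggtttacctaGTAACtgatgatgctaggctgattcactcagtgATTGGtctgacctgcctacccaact
H2-DMa inner start, 1 mismatch: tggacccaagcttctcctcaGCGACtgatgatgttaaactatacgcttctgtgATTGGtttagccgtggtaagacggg
H2-Ab1 upstream region: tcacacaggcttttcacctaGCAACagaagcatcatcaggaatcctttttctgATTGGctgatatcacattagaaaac

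The spacing between the cores was 28 bases in H2-Aa, in H2-DMb1, at the inner H2-DMa start and upstream of H2-Ab1, and 27 bases in H2-Eb1. Accessibility over the exact pairs was low, and KO and WT overlapped there after scaling. The mismatched pairs lay in more accessible regions, with mean scaled tags of 88.2 at H2-DMb1 and 278 at the inner H2-DMa start. Tags at the H2-Eb1 promoter (chr17:34305651-34305938) were 26, 24, 18 and 24 in KO and 33, 30, 30 and 29 in WT, with WT above KO in tags as recovered and overlapping after scaling (−0.20 ± 0.19, adjusted p = 0.549, limma). The region upstream of H2-Ab1 (chr17:34261455-34261879) had 22, 37, 22 and 19 tags in KO and 29, 40, 23 and 23 in WT (0.01 ± 0.20). The H2-Aa promoter (chr17:34287722-34288082) had 12, 21, 13 and 19 tags in KO and 15, 17 and 22 in WT 1_3, 3 and 4, with no peak in WT 1_2. It was therefore not among the regions tested.

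H2-Ab1 was the most accessible of the 3 chain genes. Its promoter (chr17:34263000-34263513) had 51, 54, 49 and 45 tags in KO and 52, 65, 61 and 60 in WT, a difference of −0.04 ± 0.15. The strongest region of the locus lay 5.4 kb upstream, over the start of a longer H2-Ab1 transcript that the basic annotation leaves out (chr17:34257547-34258050). It had 81, 78, 39 and 50 tags in KO and 68, 73, 77 and 61 in WT (−0.01 ± 0.15), and the spread among the KO libraries was wider than that among the WT libraries. A second region 5′ of H2-Eb1 (chr17:34304724-34305104) had 21, 22 and 19 tags in KO 1_2, 1_3 and 3, no peak in KO 2, and 19, 19, 25 and 22 tags in WT.

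**Figure D3:**
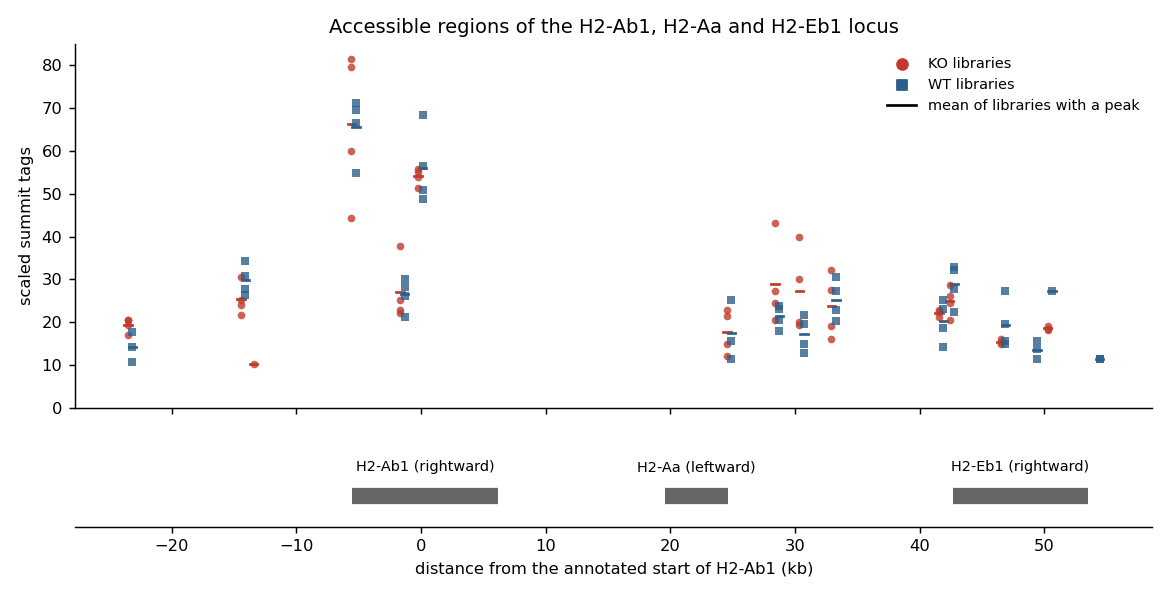
Scaled summit tags of the regions around H2-Ab1, H2-Aa and H2-Eb1 against the distance from the annotated start of H2-Ab1 (kb), with gene bodies below. Points are libraries with a peak and short bars are their means. The tallest regions lie at and just upstream of H2-Ab1, the H2-Aa and H2-Eb1 starts reach at most 33 scaled tags, and KO and WT overlap at all 8 regions with a peak in every library.

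Between the divergent H2-Aa and H2-Eb1 genes lay 3 regions shared by every library. The middle one, an intron of the overlapping gene Gm20513, showed the largest positive difference around the 9 genes (chr17:34293545-34293921). It had 20, 39, 17 and 25 tags in KO and 13, 26, 16 and 19 in WT. The groups overlapped after scaling, with WT 1_2 and WT 3 lowest and KO 1_3 highest. The difference was 0.63 ± 0.22 (95% interval 0.18 to 1.07, 1.54-fold), with an adjusted p of 0.0518 in limma and 0.143 in an exact permutation test (two-sided). It passed without KO 1_2 (adjusted p = 0.0319), without KO 2 (0.0277) or without WT 4 (0.025), and over 17 alternatives the adjusted p ranged from 0.00397 to 0.303. The difference was 0.43 without KO 1_3 and 0.42 with fold enrichment in place of tags.

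The flanking regions differed less. The one nearer to H2-Aa (chr17:34291597-34291914) had 43, 24, 24 and 17 tags in KO and 21, 24, 25 and 21 in WT, where KO 1_2 alone stood out (0.38 ± 0.21, adjusted p = 0.239). The one nearer to H2-Eb1 (chr17:34296061-34296510) had 32, 27, 14 and 16 tags in KO and 28, 27, 33 and 20 in WT (−0.12 ± 0.21). Sequence at the middle summit, chr17:34293674-34293794 on the plus strand of GRCm38.p6 (RefSeq), is shown as that of the region with the largest difference. Capitals mark a PU.1 core, which reads TTCCTC on this strand, and an AP-1 core (TGANTCA).
Gm20513 intron: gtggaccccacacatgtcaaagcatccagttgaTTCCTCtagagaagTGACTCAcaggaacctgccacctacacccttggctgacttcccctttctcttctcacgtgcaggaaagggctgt

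Peaks missing from some libraries were frequent in H2-Eb1. An intronic region 6.6 kb into the gene (chr17:34312240-34312586) had 15, 17 and 12 tags in WT 1_3, 3 and 4 and no peak in WT 1_2 or in any KO library. It was the only one of the 76 regions whose numbers of KO and WT libraries with a peak differed by at least 3, a difference that 4.66% of regions in at least 2 libraries showed. Leaving out WT 1_2 turned it into a region with a peak in all WT and no KO libraries. The next intronic region, at 7.8 kb (chr17:34313469-34313778), had 18, 18 and 16 tags in KO 1_2, 1_3 and 3 and 24 in WT 4, and leaned the other way.

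Cd74, the invariant chain, which also forms a surface receptor for the cytokine MIF, had 8 regions, 6 of them in all libraries. At its promoter (chr18:60803552-60803838) the KO libraries had 56, 39, 38 and 43 tags and the WT libraries 46, 53, 48 and 40, a difference of 0.12 ± 0.16. The gene body was more accessible than the promoter. Intronic regions at 2.1 kb (chr18:60805684-60806106) and 3.6 kb (chr18:60807226-60807660) had 140, 134, 114 and 122 and 134, 115, 97 and 100 tags in KO, against 144, 150, 144 and 97 and 139, 165, 126 and 99 in WT. Their differences were 0.16 ± 0.10 and −0.02 ± 0.10, and the lowest adjusted p in the window was 0.322 (limma). A region between them (chr18:60806641-60806840) had a peak of 45 tags in KO 1_3 only, on a local background of 12.9 tags, so that a summit as high could go uncalled in the other libraries.

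H2-DMa and H2-DMb1 encode the DM heterodimer, the peptide exchange catalyst of the class II pathway. Their windows held 18 regions, 12 in all libraries, with 5 negative and 7 positive differences. They were the most accessible of the class II genes, with shared regions between 23 and 334 tags and a median strength percentile of 69. At the inner H2-DMa start (chr17:34135288-34135921) the KO libraries had 280, 239, 259 and 236 tags and the WT libraries 266, 334, 308 and 282, a difference of −0.01 ± 0.09. At the outer start, which faces the start of Brd2 (chr17:34122267-34122918), tags were 80, 93, 76 and 69 in KO and 68, 102, 81 and 82 in WT (0.15 ± 0.12). Both starts overlapped between genotypes after scaling. The H2-DMb1 promoter (chr17:34152814-34153462) had 95, 82, 85 and 87 tags in KO and 72, 105, 95 and 77 in WT, a difference of 0.23 ± 0.12 with an adjusted p of 0.216 (limma).

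Upstream of H2-DMb1 lies H2-DMb2, a near-identical copy, so that reads of the pair may be lost to the mapping quality filter or misplaced, and tags there are uncertain. The region at its start (chr17:34142972-34143449) had 244, 237, 207 and 201 tags in KO and 216, 226, 238 and 189 in WT. After scaling every KO library lay above every WT library (exact permutation p = 0.0286), and the difference was 0.25 ± 0.09 with an adjusted p of 0.0529 in limma. WT 1_3 lay apart from the other WT libraries there, and without it the difference was 0.16 (adjusted p = 0.232), while without WT 4 the adjusted p was 0.0294, in a range of 0.016 to 0.706 over 19 alternatives. A region 1668 bp from the same start (chr17:34141511-34141811) had 90, 79, 75 and 69 tags in KO and 76, 60, 84 and 64 in WT. It also had KO above WT after scaling (0.36 ± 0.14, adjusted p = 0.0808), with WT 1_3 again the lowest, and without WT 1_3 the difference was 0.18 (adjusted p = 0.436, in a range of 0.045 to 0.49 over 19 alternatives). The region that lies between them (chr17:34142505-34142857) had a difference of −0.16 ± 0.14.

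Local background limited what could be called near H2-DMa. A region in an intron of Brd2 (chr17:34120896-34121511) had 54 to 82 tags in 7 libraries and no peak in WT 4, on a local background of 17.3 to 28.4 tags. A region in an intron of H2-DMa (chr17:34124701-34124939) had 49 and 58 tags in KO 1_2 and 1_3 and 54 and 55 in WT 3 and WT 4, with no peak in the other libraries. A missing peak at these places thus does not bound the tags to low values.

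Cd80 and Cd86 are the costimulatory ligands, and had the most regions in all libraries, 18 of 27. Of the differences 11 were negative and 7 positive. Cd80 had 10 regions, 6 of them shared. At the Cd80 promoter (chr16:38458628-38459116) the KO libraries had 174, 168, 157 and 136 tags and the WT libraries 167, 193, 126 and 149. The groups overlapped after scaling, and the difference of 0.22 ± 0.10 had an adjusted p of 0.138 (limma), which was 0.0437 without WT 4 (range 0.0437 to 0.778 over 19 alternatives), and without WT 3 the difference was 0.11. Between the annotated Cd80 starts, an intronic region stronger than the promoter (chr16:38457127-38457569) had 272, 261, 227 and 222 tags in KO and 219, 307, 265 and 214 in WT. Scaled values placed all KO above all WT libraries (0.19 ± 0.08, adjusted p = 0.116, exact permutation p = 0.0286), and with fold enrichment in place of tags the difference was 0.12. The strongest region of the window was the start of the neighbouring gene Adprh (chr16:38452442-38452988), with 293, 272, 263 and 228 tags in KO and 273, 342, 320 and 259 in WT (0.04 ± 0.08).

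The opposite direction was seen further inside Cd80. An intronic region 20.3 kb from the first start (chr16:38475583-38476047) had 26, 20, 18 and 24 tags in KO and 27, 47, 44 and 28 in WT. WT 1_3 and WT 3 were high and the other WT libraries lay near KO, and the difference was −0.47 ± 0.19 with an adjusted p of 0.0944 (limma). With fold enrichment in place of tags it was −0.28.

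Cd86, on the minus strand, had 17 regions, 12 of them in all libraries and 9 of those 12 with a negative difference. Over the genome 42.4% of shared regions had a negative difference. Its promoter (chr16:36665725-36666254) had 70, 73, 60 and 54 tags in KO and 62, 91, 70 and 56 in WT (0.11 ± 0.13). Several intronic summits were higher than the promoter, and others were lower. Some of the higher ones stood on more local background, such as 10.5 to 20.8 tags at chr16:36631587-36631958, against 2.44 to 4.38 at the promoter. The strongest region was an intron 39.0 kb from the start (chr16:36626801-36627357), with 264, 254, 230 and 198 tags in KO and 299, 363, 315 and 285 in WT. All WT libraries lay above all KO libraries, before and after scaling. The difference was −0.20 ± 0.08 (95% interval −0.37 to −0.04), with an adjusted p of 0.0875 in limma and the smallest possible exact permutation p, 0.0286. The adjusted p was 0.0448 without WT 1_3 and ranged from 0.00703 to 0.926 over 19 alternatives. With fold enrichment in place of tags, a measure that divides by the local background, the difference was −0.01 (adjusted p = 0.926).

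Both PU.1 cores near that summit fell within its sequence, which is shown for this reason (chr16:36627010-36627130, plus strand, GRCm38.p6 from RefSeq, cores GAGGAA in capitals). The core was present at 38.3% of all shared regions over the genome.
Cd86 intron: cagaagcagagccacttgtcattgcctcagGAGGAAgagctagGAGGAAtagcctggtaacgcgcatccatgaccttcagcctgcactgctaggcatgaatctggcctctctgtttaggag

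A second Cd86 region with WT above KO lay downstream of the gene, 78.0 kb from its start, in an intron of Gm49662 (chr16:36587917-36588366). It had 49, 50, 30 and 38 tags in KO and 62, 68, 66 and 57 in WT. After scaling the groups barely separated, with 51 tags in KO 1_3 and 51.1 in WT 1_3. The difference was −0.41 ± 0.15 with an adjusted p of 0.0745 (limma) and an exact permutation p of 0.0286. With fold enrichment in place of tags it was −0.11 (adjusted p = 0.574), and without KO 2 it was −0.28 (0.276). The other intronic Cd86 regions overlapped between genotypes. The one 9959 bp from the start (chr16:36655728-36656368), second in strength, had 169, 141, 119 and 160 tags in KO and 160, 223, 188 and 131 in WT (−0.02 ± 0.10).

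The regions around the 9 genes were then set beside the genome. The 10 regions with an unadjusted p under 0.05 were 4 lower and 6 higher in KO. Genotypes did not overlap after scaling at 6 of 53 (11.3%), with WT above at 2 and KO above at 4, against 16.2%. Of the calls over the genome 54.7% were lower in KO, a share that was 77.6% when libraries were scaled by their genome-wide background and 49.3% without WT 4. The median difference was 0.01 for the 53 regions and 0.04 for all, and the median size was 0.145 and 0.157. Differences ranged from −0.48 to 0.63, and 49.1% of them were negative, against 42.4% of all shared regions. The 95% intervals reached a median of 0.288 to either side, and lay within ±0.5 at 36 of the 53 regions and within ±1 at 52. These intervals are not adjusted for the number of regions tested, so the size needed to pass was larger. None of the 10 regions with an unadjusted p under 0.05 passed after adjustment. Changes of the size of these intervals, and smaller ones, could therefore be missed with this number of libraries.

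**Figure D4:**
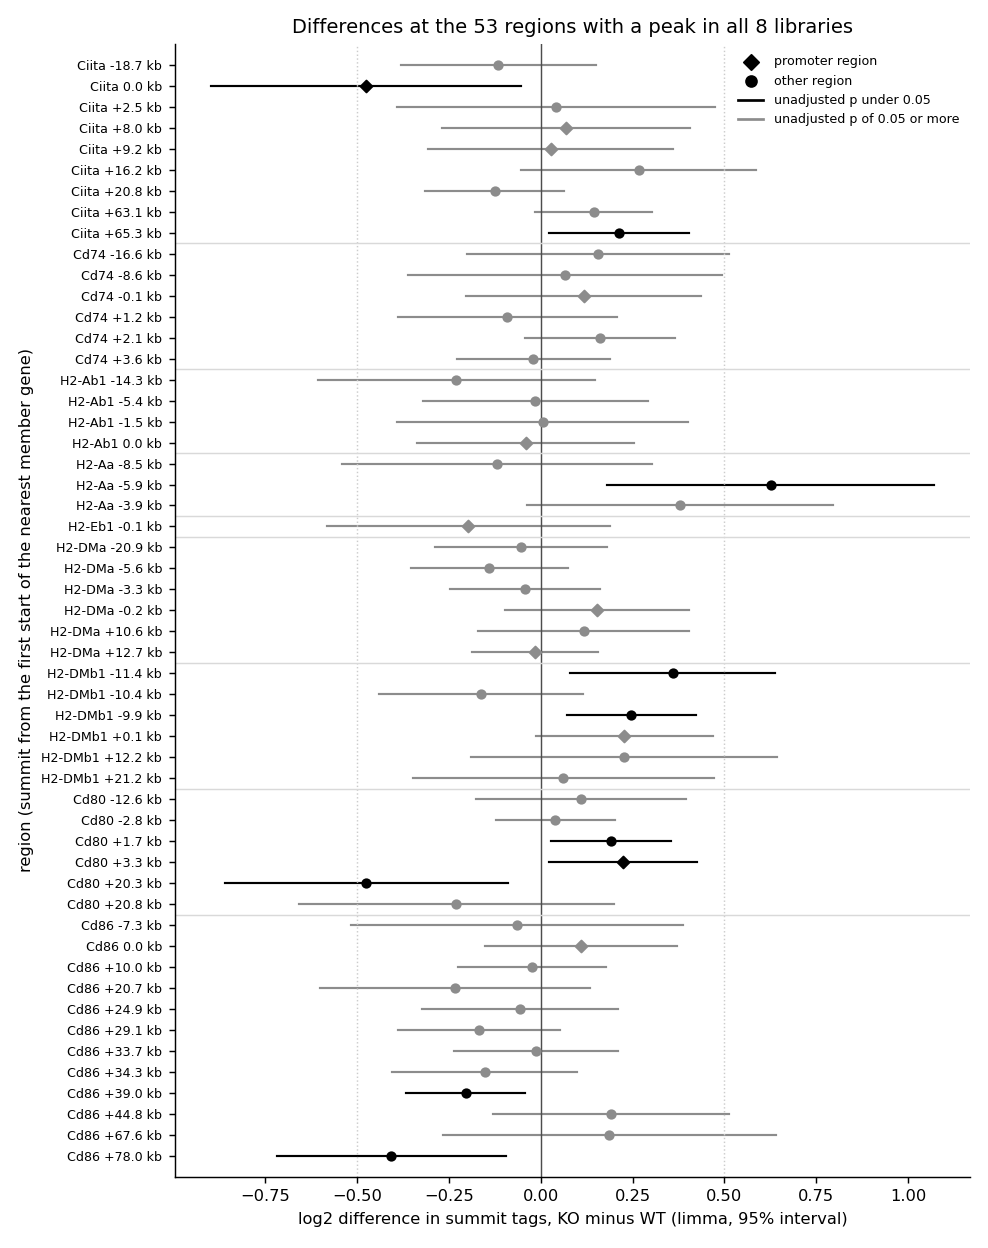
Log2 differences (KO minus WT, limma) with 95% intervals at the 53 shared regions, labelled by the nearest gene and the distance in kb from its first start. Black marks the 10 regions with an unadjusted p under 0.05 and diamonds mark promoter regions. Points lie on both sides of 0, from −0.48 to 0.63, and none passed after adjustment.

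Regions without a peak in some of the libraries were compared by genotype as well. Among the 23 regions with a peak in 2 to 7 libraries, more WT than KO libraries had one at 11 (47.8%) and more KO at 7 (30.4%), against 51.7% and 27.6% over the genome. Of the 8 regions found in a single library, 3 came from WT 1_3, the library with the longest list.

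Motif cores were counted at the 53 shared regions. Within 100 bases of the strongest summit, on both strands, the PU.1 core GAGGAA was present at 26 regions (49.1%, against 38.3% of all shared regions), the AP-1 core TGANTCA at 6 (11.3% against 12.3%), the interferon-stimulated response element at 2 (3.77% against 2.71%) and the gamma-activated site TTCNNNGAA at 1 (1.89% against 5.79%). A CTCF core was present at 3 (5.66% against 3.94%). The direct repeat bound by RXR heterodimers with PPARγ, a pair of AGGTCA hexamers spaced by 1 base and read with up to 2 mismatches, was present at 0 of 53, against 4.04%. These counts describe letters in a window and not binding.

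Further genes of the pathway were read from the same fit. Around 19 genes (H2-DMb2, H2-Oa, H2-Ob, H2-Eb2, Rfx5, Rfxap, Rfxank, Creb1, Nfya, Nfyb, Nfyc, Ifi30, Ctss, Lgmn, March1, Cd40, Cd274, Pdcd1lg2 and Icosl) lay 112 shared regions, and 1 was lower and 4 higher in KO, 4.46% in all against 12.8% over the genome. Of the 173 regions of this list 24 also lay in the windows above.

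Lgmn, a lysosomal endopeptidase that cleaves the invariant chain and antigens, held 2 of the 4 higher regions. Its intronic region (chr12:102417666-102418065) had 56, 73, 63 and 50 tags in KO and 34, 70, 42 and 28 in WT, a difference of 0.76 ± 0.16 with an adjusted p of 0.00078 (limma) that passed in 18 of 19 alternatives. Its promoter (chr12:102439555-102440065) had 307, 311, 338 and 271 tags in KO and 261, 303, 317 and 296 in WT (0.27 ± 0.09, adjusted p = 0.039), and passed in 9 of 19. The promoter of Creb1, whose product sits on the X box, had 346, 323, 272 and 291 tags in KO and 292, 312, 297 and 259 in WT (chr1:64532346-64533260, 0.30 ± 0.08, adjusted p = 0.01), and passed in 16 of 19. The promoter of Icosl, a ligand of the T cell receptor ICOS, had 69, 88, 77 and 69 against 68, 76, 56 and 65 tags (chr10:78069076-78070101, 0.41 ± 0.13, adjusted p = 0.037), and passed in 10 of 19. None of the 4 higher regions passed with fold enrichment in place of tags. The adjusted p was then 0.144 (limma) at the Lgmn intron, 0.653 at its promoter, 0.189 at Creb1 and 0.23 at Icosl. Scaling by background tags left the Lgmn intron past the threshold (0.015, limma) but not the promoters of Lgmn (0.625), Creb1 (0.547) and Icosl (0.369).

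The lower region lay within 20 kb of Nfya, a subunit of the Y box factor, in an intron of the neighbouring Apobec2 (chr17:48427007-48427621). It had 27, 34, 23 and 26 tags in KO and 46, 57, 57 and 47 in WT, a difference of −0.69 ± 0.17 with an adjusted p of 0.00356 that passed in 19 of 19 alternatives. Peaks in all WT and no KO libraries were found in an intron of Ctss, the protease that completes invariant chain removal (chr3:95539870-95540168, 19, 17, 18 and 15 tags in WT), and within 20 kb of Cd274, in an intron of Plgrkt (chr19:29356523-29356863, 22, 25, 14 and 23 tags). These made up 1.28% of the list's regions in at least 2 libraries, near the 0.82% over the genome, and no region of the list had the opposite pattern (0.285%). Numbers of KO and WT libraries with a peak differed by at least 3 at 5 of those 156 regions, against 4.66% over the genome. One of them, a second region within 20 kb of Nfya (chr17:48385804-48386131), had a peak in 4 KO libraries and 1 WT library. At the others more WT libraries had a peak. Around 9 genes of class I presentation (B2m, H2-K1, H2-D1, Tap1, Tap2, Tapbp, Psmb8, Psmb9 and Nlrc5), 0 of 40 shared regions passed in limma (12.8% over the genome), with 6 (15%) at an unadjusted p under 0.05 against 26.2%. Library counts differed by at least 3 at 1 of their 48 regions in at least 2 libraries (4.66% over the genome).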

How the data were processed

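Peak lists of 8 ATAC-seq libraries (4 KO, 4 WT, grouped by genotype label) were analysed. Per the study's methods, the authors used Cutadapt for trimming and Bowtie2 for alignment to mm10, dropped duplicates and low-quality alignments, and called peaks per library with MACS3 after shifting cuts and extending them to 200 bp. The deposited lists give each peak's fold enrichment (the ratio of summit to local background, each plus 1), −log10 p and −log10 q, its summit, and a score that was not used. The authors' edgeR test needs read counts, which the lists do not hold.

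Summit tags were the whole number that returned a peak's fold and −log10 p under a Poisson law (within 1e-05 in 100% of peaks). Summits count overlapping fragments, so depth limits precision. A region's value was its highest summit per library. Regions with a peak in all libraries were tested with limma 3.58.1 (R 4.3.3, trended prior, log2 of tags + 0.5, two-sided, threshold 0.05), which was tested on simulated data, and single regions with exact permutation over 70 labelings (smallest p 0.0286). Starts were those of GENCODE M21 basic transcripts, and coordinates are 1-based on mm10. Python 3.11.15 was used.

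The text names each gene's promoter regions and its region of highest mean tags, regions past the threshold, and regions whose numbers of KO and WT libraries with a peak differ by at least 3. Other regions near the threshold, and those that flank them, were named after their values had been seen. The genes and lists were chosen with earlier results of these data known. Genes of the other lists are named where a region passed, at most 6 per list, and a marker gene is not reported here. Alternatives covered the scaling, pseudocount, filters, merging, prior, replicate block and leaving out each library.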

Additional observations from a re-analysis of the deposited data

Results flagged for a closer look

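In 106 sets of 4 libraries of one genotype at the shared regions, 5 had 1 library far from the other 3, measured by the gap to its nearest neighbour as a share of the whole range, above Dixon's 95% critical value. Chance gives about 1 in 20 such sets. All 5 lay around H2-DMa and H2-DMb1. At the region from position 34101521 on chromosome 17, upstream of H2-DMa, WT 4 had 105 scaled tags against 91.8 to 92.4 in the other WT libraries (share 0.947). WT 1_3 was low at the regions from 34141511, with 45.1 against 72.9 to 77.6 (share 0.885), and from 34142972 at the H2-DMb2 start, with 170 against 211 to 220 (share 0.838). Another shared region lay between them. At the region from 34165022, downstream of H2-DMb1, KO 3 had 48 scaled tags against 27.1 to 29.6 in the other KO libraries (share 0.849). At the region from 34174047, KO 1_3 had 46.9 against 27.6 to 30.2 (share 0.836).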

How the results depend on the processing

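Scaling by background tags, a pseudocount of 1 tag, a minimum mean of 30 tags, a constant prior, a stricter q, a wider merging overlap, equal list lengths, folds in place of tags, and counting replicates 1_2 and 1_3 as 1 sample each left 0 of the regions around the 9 genes past the threshold in limma. Quantile normalization called 1 lower (the Cd86 intron, −0.26, adjusted p = 0.00703). Leaving out single libraries called 0 to 1 lower and 0 to 3 higher, and gave 0 to 1 regions with a peak in all WT and no KO libraries. The replicate block on the 6 libraries with shared names called 5 higher (adjusted p 0.00397 to 0.0458), and the same 6 libraries without it, an alternative chosen after seeing the data, 3. The smallest of these adjusted p belonged to the region between H2-Aa and H2-Eb1 (0.89). The labels do not say whether libraries with shared names were paired, and the main fit left the block out. Their deviations correlated weakly, at 0.0555, 0.116 and 0.0368, although each of these KO libraries correlated best with the WT library of its own number. Over 989 values of the 53 regions in 19 settings, 65 changed sign in 20 regions, all with main differences of at most 0.187 and none past the threshold. Over all shared regions, 3337 were lower and 2759 higher. Background scaling gave 1988 and 575, the replicate block 3296 and 3608, folds 1042 and 645, a constant prior 1662 higher, and leaving out a library 2624 to 3182 lower and 1823 to 3269 higher. The median difference over the genome moved from 0.04 to −0.01 with background scaling. The X and Y box pair was held by 2 genes in the promoter table, by 3 with 1 mismatch, and, in a search added after seeing the data, by 5 genes with 1 mismatch around promoter summits. The cause of these changes was not tested. Weak regions of 10 to 20 tags and regions on high local background are limited most by depth.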
